A study of Mus musculus with 3 samples.

Results

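The 9 genes described here encode the A20 enzyme, its binding proteins and partners, and 2 separate deubiquitinases, which together trim the ubiquitin chains that carry signals from Toll-like and cytokine receptors to NF-kB. They were chosen by symbol as Tnfaip3, Tnip1, Tnip2, Tnip3, Tax1bp1, Itch, Rnf11, Cyld and Otulin, which are 9 of the 55536 annotated genes measured. The RNA came from the chromatin fraction of bone-marrow-derived macrophages of C57BL/6J mice, which are primary cells grown from marrow, and was sequenced as total RNA after removal of ribosomal RNA. All 3 libraries, numbered as biological replicates 1, 2 and 3, form 1 group: the cells were exposed to 100 ng/ml lipid A for 12 h, kept without it for 12 h, and then given the same dose for 90 min. This lipid anchors lipopolysaccharide in the outer membrane of bacteria and is the ligand of Toll-like receptor 4. Age and sex were not recorded, no genetic change is listed, and no label ties the replicates to separate cultures or mice. SDs thus measure only the spread between these libraries, which may be technical, and p-values hold for these libraries only. Untreated or once-treated cells were not analysed here, so no statement on induction is possible. In bulk RNA, fewer cells that express a gene and less RNA per cell cannot be told apart.

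Signals from Toll-like receptors are passed on by ubiquitin chains, which hold kinases and their adaptors together until NF-kB is released into the nucleus. A20 and the ABIN proteins bind such chains, and A20 both removes and adds ubiquitin, while CYLD and OTULIN cut chains off. Several of the genes, with Tnfaip3 as the best known, are themselves NF-kB targets, so that the pathway makes its own brake. RNA bound to chromatin is rich in transcripts still being made or spliced, so a level here stands closer to synthesis than a level in whole-cell RNA.

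Tnip3 and Tnfaip3 were the highest of the 9 genes in each library, and Tnip1 the next. The promoter sequences of these genes show where NF-kB motifs lie, and 4 of them are printed because they belong to the A20 and ABIN genes at the top of the order and to Cyld, in which the motif also lies before the start. Each runs from 250 bases before to 50 bases after a RefSeq start on GRCm38.p6, 5′ to 3′ on the gene's strand. Capitals mark matches to the kB consensus on either strand, and the Tnip1 run in capitals holds 3 overlapping matches.
Tnip3, chr6:65590148-65590447, plus strand: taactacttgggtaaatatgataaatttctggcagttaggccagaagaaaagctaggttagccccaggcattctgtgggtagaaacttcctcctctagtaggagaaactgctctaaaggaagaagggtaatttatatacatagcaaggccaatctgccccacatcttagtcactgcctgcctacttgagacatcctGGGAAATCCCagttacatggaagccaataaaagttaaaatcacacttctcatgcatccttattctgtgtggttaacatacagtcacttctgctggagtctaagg
Tnfaip3, chr10:19015361-19015660, minus strand: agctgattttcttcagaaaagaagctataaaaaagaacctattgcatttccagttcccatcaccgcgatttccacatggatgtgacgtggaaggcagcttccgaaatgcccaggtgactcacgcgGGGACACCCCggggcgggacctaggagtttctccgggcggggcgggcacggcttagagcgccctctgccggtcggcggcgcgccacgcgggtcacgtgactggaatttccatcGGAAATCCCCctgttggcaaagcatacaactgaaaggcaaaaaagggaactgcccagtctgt
Tnip1, chr11:54962891-54963190, minus strand: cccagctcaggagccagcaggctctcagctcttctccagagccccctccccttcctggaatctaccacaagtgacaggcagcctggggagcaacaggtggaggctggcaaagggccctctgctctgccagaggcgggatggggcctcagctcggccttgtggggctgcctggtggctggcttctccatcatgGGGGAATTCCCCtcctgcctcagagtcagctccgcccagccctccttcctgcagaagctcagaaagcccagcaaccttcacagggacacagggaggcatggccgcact
Cyld, chr8:88696778-88697077, plus strand: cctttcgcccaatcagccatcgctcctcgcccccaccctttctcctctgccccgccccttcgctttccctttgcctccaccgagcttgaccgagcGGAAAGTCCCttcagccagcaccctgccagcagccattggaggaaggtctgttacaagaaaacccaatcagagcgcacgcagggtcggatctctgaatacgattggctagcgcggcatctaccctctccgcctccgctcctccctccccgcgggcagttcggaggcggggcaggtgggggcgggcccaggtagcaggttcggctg

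RefSeq windows were held for 7 of the 9 genes, 9 windows in all, with 2 each for Tnfaip3 and Tax1bp1, and none for Itch or Rnf11. The kB consensus was found in a window of 5 of these 7 genes. Of 20150 such windows, from 16522 protein-coding genes, 4.97% held it, which is a share of windows and not of genes. A gene with 2 windows had 2 places for a match. The match began 54 bases before the start in Tnip3, 125 and 12 bases before it in Tnfaip3, 58 to 56 bases before it in Tnip1, and 155 bases before it in Cyld. Tax1bp1 had its match 34 bases after the second of its starts, and Tnip2 and Otulin had none in their windows. A match describes letters only and says nothing of binding, which was not measured.

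The deposited transcript levels say how much RNA was assigned to transcripts that begin within 100 bases of each window's start. For Tnip3, which spans 108728 bases, 5 transcripts begin there and held 72.6% of its TPM (a level corrected for transcript length and library total, averaged over 3 libraries). Of these 5, only Tnip3-201 is coding, and it held 6.67%. The 2 coding transcripts of Tnip3 that begin about 65 kb upstream, Tnip3-207 and Tnip3-208, held 4.84% and 0.0788%. In the other transcript table, made from the reads directly, Tnip3-207 held 15.0% and Tnip3-201 4.41%, so the order of these coding transcripts depended on the table. For Tnfaip3, the printed window covers the starts of transcripts with 34.8% of TPM, and its other window, without a kB match, the start of Tnfaip3-202 with 23.0%, against 21.7% and 18.1% in the other table. The corresponding shares were 48.3% (34.5% in the other table) for Tnip1, 41.5% (46.8%) for Cyld, 47.0% (30.7%) for Tnip2 and 100.0% (98.8%) for Otulin. Tax1bp1 had 69.4% at its first start, and 7.9% at the start that has the kB match just after it, or 13.3% in the other table.

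The libraries held 12671700 (replicate 1), 21747001 (replicate 2) and 16915406 (replicate 3) expected counts, and 0.353%, 0.195% and 0.26% of the counts on genes fell on the 9 genes. Starting RNA was 1 µg in replicate 1, 250 ng in replicate 2 and 500 ng in replicate 3, per the labels. Protein-coding genes of the nuclear genome held 34.1%, 27.4% and 29.4% of TPM in replicates 1, 2 and 3, in the same order as the starting RNA. Macrophage markers were present, 10 of 10 at 1 TPM or more in each library, from 19.5 ± 13.9 TPM for Itgam to 422 ± 65.5 TPM for Adgre1. Of 33 markers of dendritic cells, fibroblasts, neutrophils, B cells and T cells, 1 reached that level, Cd4 with 1.81 ± 0.206 TPM. The summed level of each of these 5 lists was between 0.0 and 2.29 TPM in each library, and S100a8, Ly6g, Elane, Cxcr2, Cd3d, Cd3e, Cd3g, Cd2 and Pax5 were at 0 in all 3. The other transcript table, however, gave 16.3 TPM to Cd3d and 4.75 TPM to Cxcr2, and at most 0.551 TPM to the others of these. By mean in that table, Cd4 (2.88 TPM), Cd8a (2.0), Zbtb46 (1.81), Col1a1 (1.36), Siglech (1.28), Mpo (1.21), Xcr1 (1.15) and Ms4a1 (1.01) also reached 1 TPM. The near absence of these markers thus depended on the table.

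**Figure D1:**
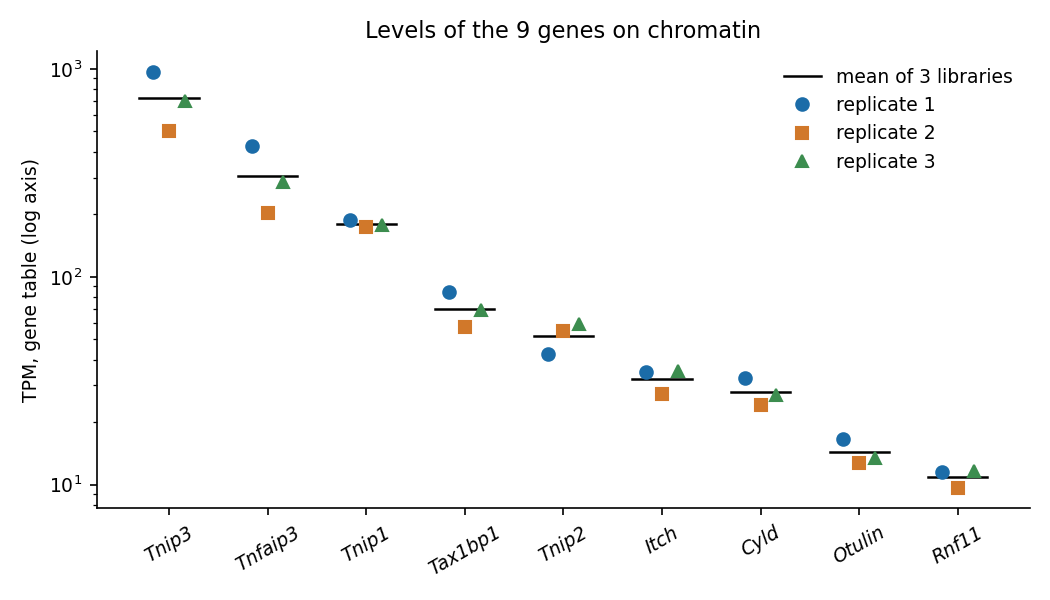
TPM of the 9 genes in each of the 3 libraries (points) with the mean (line), on a log axis. Tnip3 lies between 503 and 971 TPM and Rnf11 between 9.68 and 11.6 TPM, and the order of the genes is the same in each library.

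Levels are TPM of the gene table and are given as mean ± SD with n = 3 libraries, on mm10 positions. Each of the 9 genes reached 1 TPM in each library, 8 of 9 reached 10 TPM, and 3 of 9 reached 100 TPM. Among 22015 protein-coding genes the shares past these limits were 41.1%, 19.1% and 2.07%. The median percentile of the 9 genes among protein-coding genes was 94.1, and the median level was 52.2 ± 8.76 TPM, against 0.353 ± 0.00577 TPM for all protein-coding genes.

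Tnfaip3 encodes A20 itself, a deubiquitinase of the OTU type that also acts as a ubiquitin ligase. It lies at chr10:19000910-19015657 on the minus strand. It had 424, 204 and 287 TPM in replicates 1, 2 and 3, from 14170, 12258 and 13375 expected counts. The mean was 305 ± 111 TPM, and its rank among protein-coding genes was 94, 192 and 115. Replicate 1 was the highest and replicate 2 the lowest.

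Tnip3 encodes ABIN-3, an A20-binding protein, and lies at chr6:65525313-65634040 on the plus strand. It had 971, 503 and 703 TPM in replicates 1, 2 and 3, from 22057, 18300 and 19798 expected counts. The mean of 726 ± 235 TPM put it at rank 23, 35 and 26 among protein-coding genes. Like Tnfaip3 it was highest in replicate 1 and lowest in replicate 2, and its lowest library lay above the highest library of Tnfaip3.

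The ratio of Tnip3 to Tnfaip3 moved far less than either gene. It was 2.29, 2.47 and 2.45 in replicates 1, 2 and 3, a mean of 2.40 ± 0.0977, and its coefficient of variation was 4.07%, against 32.4% for Tnip3 and 36.5% for Tnfaip3 alone. Over the 36 pairs of the 9 genes the median coefficient of variation of the ratio was 17.6%, and only the ratio of Cyld to Otulin varied less, by 2.36%. In the other transcript table the ratio of Tnip3 to Tnfaip3 was 1.86, 1.92 and 1.90.

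Tnip1 encodes ABIN-1, which binds linear ubiquitin chains and A20 and restrains NF-kB and cell death. It lies at chr11:54910785-54962917 on the minus strand, and it had 187, 174 and 177 TPM in replicates 1, 2 and 3, from 2454, 3963 and 3533 expected counts. Its mean was 179 ± 6.74 TPM, a coefficient of variation of 3.76%, and its highest library was below the lowest library of Tnfaip3. The other transcript table gave Tnip1 355 ± 30.9 TPM, so its level depended on the table more than that of any other of the 9 genes.

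Tnip2 encodes ABIN-2, which besides A20 binds and stabilises the kinase TPL-2. It lies at chr5:34496087-34513991 on the minus strand. It had 42.4, 55.0 and 59.2 TPM in replicates 1, 2 and 3, from 488, 1121 and 982 expected counts, with a mean of 52.2 ± 8.76 TPM. Of the 9 genes it was the one with its lowest level in replicate 1.

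The 3 partners that work with A20 as a ligase complex were lower than Tnip1. Tax1bp1, which encodes a ubiquitin-binding adaptor that brings A20 to its substrates and also serves as an autophagy receptor, lies at chr6:52713729-52766780 on the plus strand. It had 84.1, 57.2 and 69.3 TPM in replicates 1, 2 and 3, from 2625, 3168 and 2951 expected counts, with a mean of 70.2 ± 13.5 TPM. Its lowest library overlapped the range of Tnip2.

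Itch encodes a HECT-type ubiquitin ligase of the NEDD4 family and lies at chr2:155133509-155226855 on the plus strand. It had 34.8, 27.3 and 35.1 TPM in replicates 1, 2 and 3, from 718, 1121 and 1143 expected counts, with a mean of 32.4 ± 4.42 TPM. Rnf11 encodes a small RING-finger protein that joins A20, TAX1BP1 and ITCH, and lies at chr4:109451098-109484728 on the minus strand. It had 11.4, 9.68 and 11.6 TPM in replicates 1, 2 and 3, from 391, 531 and 492 expected counts, and at 10.9 ± 1.07 TPM it was the lowest of the 9 genes in each library. No library of Rnf11 reached the lowest library of Itch, and none of Itch the lowest of Tax1bp1.

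Cyld encodes a deubiquitinase that cuts lysine-linked and linear chains and is a tumour suppressor in humans. It lies at chr8:88697028-88751945 on the plus strand and had 32.8, 24.3 and 27.0 TPM in replicates 1, 2 and 3, from 1027, 1546 and 1258 expected counts, with a mean of 28.0 ± 4.33 TPM. Its range overlapped that of Itch. Otulin encodes the deubiquitinase that is specific for linear chains, and lies at chr15:27542635-27630693 on the minus strand. It had 16.6, 12.8 and 13.5 TPM in replicates 1, 2 and 3, from 200, 270 and 218 expected counts, with a mean of 14.3 ± 2.06 TPM. Cyld stood above Otulin by a ratio of 1.97, 1.91 and 1.99 in replicates 1, 2 and 3, but by 1.19 on average in the other transcript table, where Otulin had 24.5 ± 4.5 TPM.

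All 36 pairs of the 9 genes were ordered alike in each of the 3 libraries, so the order Tnip3, Tnfaip3, Tnip1, Tax1bp1, Tnip2, Itch, Cyld, Otulin, Rnf11 was found 3 times. With 3 libraries the exact two-sided sign-flip permutation test of a within-library difference cannot go below p = 0.25, which was the p and the Benjamini-Hochberg adjusted p of each of the 36 pairs, so no pair was called. On the log2(TPM + 1) scale, neighbours differed by 1.26 ± 0.06 (Tnip3 minus Tnfaip3), 0.70 ± 0.48 (Tnfaip3 minus Tnip1), 1.36 ± 0.22 (Tnip1 minus Tax1bp1) and 0.42 ± 0.49 (Tax1bp1 minus Tnip2). Further down, the differences were 0.67 ± 0.36 (Tnip2 minus Itch), 0.21 ± 0.15 (Itch minus Cyld), 0.92 ± 0.04 (Cyld minus Otulin) and 0.36 ± 0.15 (Otulin minus Rnf11). The difference of Tax1bp1 and Tnip2 was smaller than its SD, so these neighbours were not separated beyond their spread. In the other transcript table Tnfaip3 minus Tnip1 was −0.07 and Tax1bp1 minus Tnip2 was −0.04, so the order within these 2 pairs depended on the table.

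**Figure D2:**
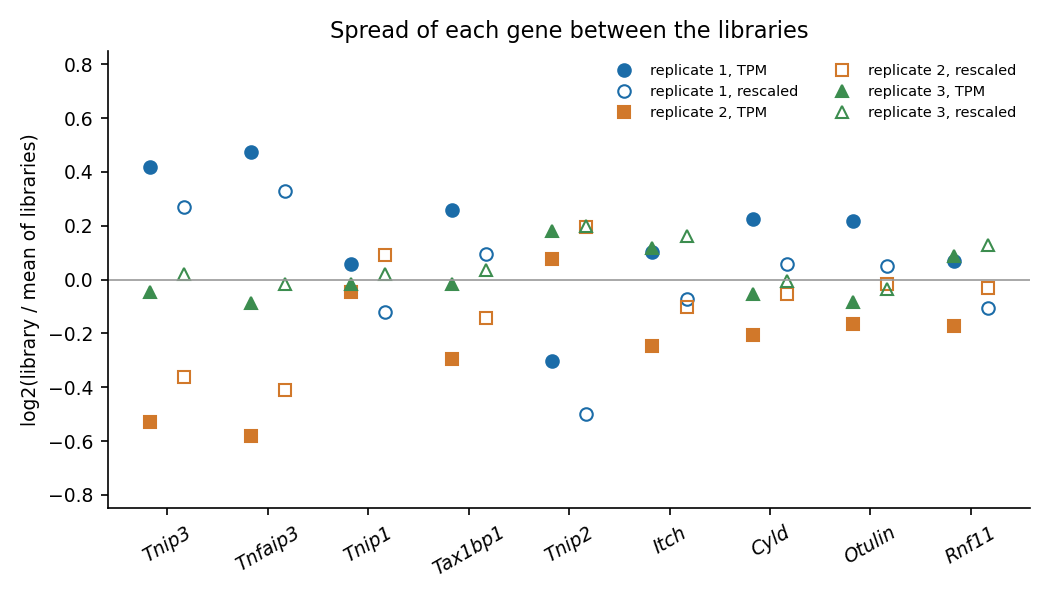
Level of each gene in each library relative to the gene's mean over the libraries, as log2 ratio, for TPM (filled) and for TPM rescaled to protein-coding genes (open). Tnip3 and Tnfaip3 are highest in replicate 1 and lowest in replicate 2 on both scales, while Tnip2 is lowest in replicate 1.

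The genes varied to very different degrees between the libraries. The SD of log2(TPM + 1) was 0.53 for Tnfaip3 and 0.47 for Tnip3, against a median of 0.25 over the 4776 protein-coding genes that averaged 10 TPM or more, among which they stood at percentiles 90.2 and 86.4. Tnip1 had an SD of 0.0535, at percentile 3.6, but not the lowest of the 9 genes on other scales: with TMM, Cyld had 0.046 and Tnip1 0.071, and in the other table Tnip2 had 0.06 and Tnip1 0.13. The other 6 genes lay between 0.13 (Rnf11) and 0.27 (Tax1bp1).

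An order of replicate 1 above 3 above 2 was shown by 6 of the 9 genes, namely Tnip3, Tnfaip3, Tnip1, Tax1bp1, Cyld and Otulin. The same order was found in 34.1% of the 4776 genes, and it is also that of the starting RNA and of the protein-coding share of TPM, whose part in it was not tested. Itch and Rnf11 were ordered replicate 3 above 1 above 2, as were 13.5% of the 4776 genes, and Tnip2 was ordered 3 above 2 above 1, as were 16.6%. Tnfaip3 was 2.08 times and Tnip3 1.93 times as high in replicate 1 as in replicate 2, so that 1 of the 9 genes passed 2-fold, against 6.09% of the 4776. After rescaling TPM to protein-coding genes, the ratio of replicate 1 to replicate 2 was 1.67 for Tnfaip3, 1.55 for Tnip3, 1.18 for Tax1bp1, 0.862 for Tnip1 and 0.618 for Tnip2. Rescaling thus narrowed the difference between these libraries in Tnfaip3 and Tnip3 but kept its direction, and turned that of Tnip1 round. For Cyld and Otulin it narrowed the ratio to 1.08 and 1.05.

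Of all 22015 protein-coding genes, those nearest to Tnip3 by Euclidean distance of log2(TPM + 1) over the 3 libraries were Lacc1, at a distance of 0.16, and Clec4e, at 0.20. Lacc1 had 1034, 520 and 649 TPM and Clec4e, which encodes the C-type lectin receptor Mincle, 901, 513 and 628 TPM in replicates 1, 2 and 3. Nearest to Tnfaip3 were Oasl1 at 0.17, with 432, 202 and 255 TPM, and Mtdh at 0.20, with 450, 186 and 263 TPM. This likeness is one of level and of library order over 3 libraries of 1 condition.

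**Figure D3:**
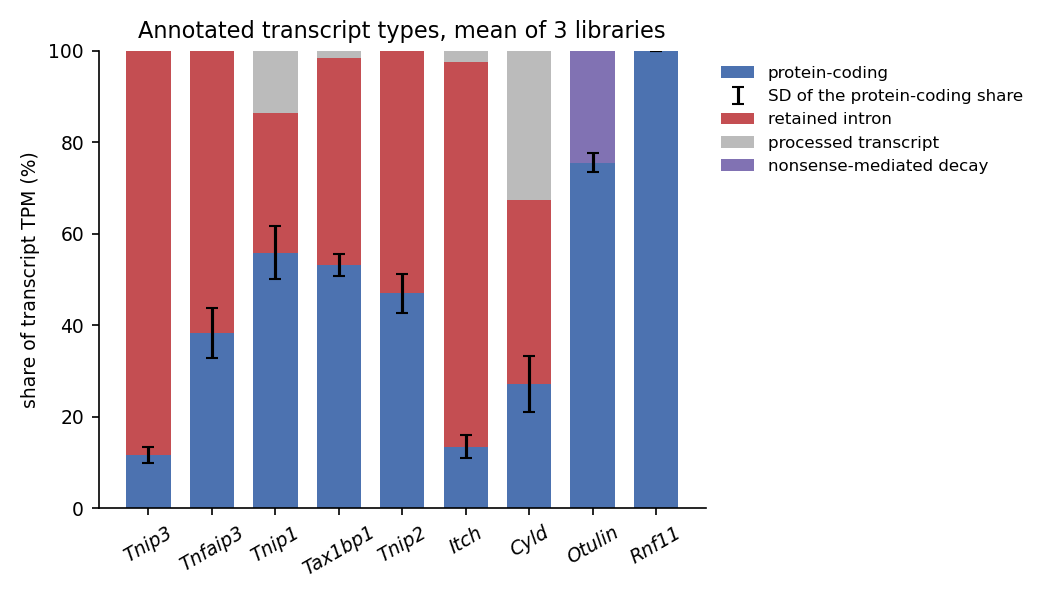
Share of each gene's transcript TPM on annotated transcript types, as mean of 3 libraries, with the SD of the protein-coding share as bars. The retained-intron share runs from 88.4% in Tnip3 to 30.7% in Tnip1, and Otulin and Rnf11 have no such transcript.

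Much of the RNA of these genes was assigned to transcripts annotated as retained intron, which are models that keep intron sequence and have no coding frame. Tnip3 had 88.8%, 86.5% and 89.9% of its transcript TPM on them in replicates 1, 2 and 3, a mean of 88.4% ± 1.73. Itch followed with 84.8%, 87.2% and 80.1%, a mean of 84.1% ± 3.62. These 2 genes stood at percentiles 97.5 and 95.8 among 5881 protein-coding genes that have such a transcript and at least 1 TPM in each library, whose median was 48.1% ± 2.41.

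Tnfaip3 had 68.0%, 58.3% and 58.9% on retained-intron transcripts in replicates 1, 2 and 3, a mean of 61.7% ± 5.45. The mean was 53.0% ± 4.18 for Tnip2, 45.3% ± 3.37 for Tax1bp1, 40.3% ± 2.57 for Cyld and 30.7% ± 4.05 for Tnip1. These 5 genes lay between percentiles 23.8 and 72.3, so the high shares of Tnip3 and Itch were not a feature of all 9 genes. The order of these 5 genes depended on the table. In the other one, retained-intron transcripts held 69.3% of Tnip2, 51.5% of Tnfaip3, 37.2% of Cyld, 33.1% of Tax1bp1 and 29.6% of Tnip1. Such transcripts cannot tell an intron that stays in the finished RNA from one not yet removed.

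Within Tnip3, 4 retained-intron transcripts each held a similar share in this table, with 23.2% ± 1.43 on Tnip3-205, 22.4% ± 1.96 on Tnip3-204, 21.8% ± 1.47 on Tnip3-203 and, for Tnip3-206, 24.9%, 17.9% and 20.3% in replicates 1, 2 and 3. The split depended on the table, since the other one gave 36.1% to Tnip3-205, 17.4% to Tnip3-204, 10.2% to Tnip3-203 and 16.8% to Tnip3-206. Tnip3-206 is a single exon of 4627 bases that holds the whole of intron 1 of the coding transcript Tnip3-201, and 94.7% of its bases lie outside the exons of the gene's coding transcripts. Tnip3-204 is also a single exon, of 2624 bases with 95.1% outside them. The coding transcript with the highest share here, Tnip3-201, held 6.67% ± 1.11. In the other table it held 4.41%, below the 15.0% of the coding transcript Tnip3-207.

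In Tnfaip3 the leading transcript was Tnfaip3-206 with 34.2% ± 2.85, a model of 764 bases and 2 exons with 66.8% of its bases outside coding exons. Tnfaip3-205, with 27.5% ± 2.61, has 7 exons and keeps introns 4 and 6 of Tnfaip3-202, the coding transcript with the highest share, 23.0% ± 1.63. In the other table Tnfaip3-206 also led, with 33.6%. Among coding transcripts Tnfaip3-204 was the highest there with 25.5%, against 7.99% here, and Tnfaip3-202 held 18.1%. The coding transcript Tnfaip3-201, which starts in the window printed above, had 0.267%, 9.72% and 11.9% in replicates 1, 2 and 3, so replicate 1 stood apart there.

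In Itch a single model, Itch-204, held 51.0% ± 8.24. It begins at the gene's first base, has 1171 bases in 2 exons, and 86.8% of them lie outside coding exons. Cyld had 32.6% ± 3.86 on the noncoding processed transcript Cyld-208, 17.8% ± 3.38 on Cyld-211, a single exon with 97.8% of its bases outside coding exons, and 17.5% ± 0.588 on Cyld-207, which keeps intron 6 of the leading coding transcript. Tax1bp1-201, a coding transcript, led in Tax1bp1 with 44.4% ± 3.23.

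Tnip1 was divided between the coding transcript Tnip1-205, with 31.5% ± 1.57, and the retained-intron transcript Tnip1-209, with 30.7% ± 4.05. In the other transcript table Tnip1-205 held 9.53% and Tnip1-209 29.6%. Otulin had 75.6% ± 2.06 on the coding transcript Otulin-201 and 24.4% ± 2.06 on Otulin-203, annotated as a target of nonsense-mediated decay. All of the RNA of Rnf11 was on coding transcripts, with 57.1% ± 7.86 on Rnf11-201 and 42.9% ± 7.86 on Rnf11-202. The other table gave 80.1% to Rnf11-201, 14.6% to Rnf11-202 and 5.31% to Rnf11-203. Since all transcripts annotated for Rnf11 are coding, its 100.0% says nothing of splicing.

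The sources used here do not state whether reads were counted by strand, so genes that overlap these 9 on the opposite strand cannot be told apart from them with certainty. Tnip1 had 2454 counts or more, and the pseudogene Gm12230 opposite to it had 198, 186 and 159 expected counts, or 57.2 ± 13.8 TPM (87.2 TPM in the other table). Gm43967, opposite to Tax1bp1, had 18.6 ± 4.26 TPM from at most 26 counts, and Gm43966 there had 1.25 ± 0.102 TPM. Opposite to Cyld, Gm17910 had 8.46 ± 1.39 TPM and Gm17995 3.33 ± 0.901 TPM, and opposite to Itch, Gm14227 had 3.33 ± 0.903 TPM. Otulin had 200, 270 and 218 counts, and the coding gene Ank, whose span overlaps 52275 bases of it on the other strand, had 180, 170 and 165 counts, or 5.33 ± 1.91 TPM. Mir7117, also there, was at 0. Relative to the gene's own counts, the counts of a gene opposite to it were thus highest for Otulin. They cover the whole opposite gene, and counts within the shared bases were not taken.

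**Figure D4:**
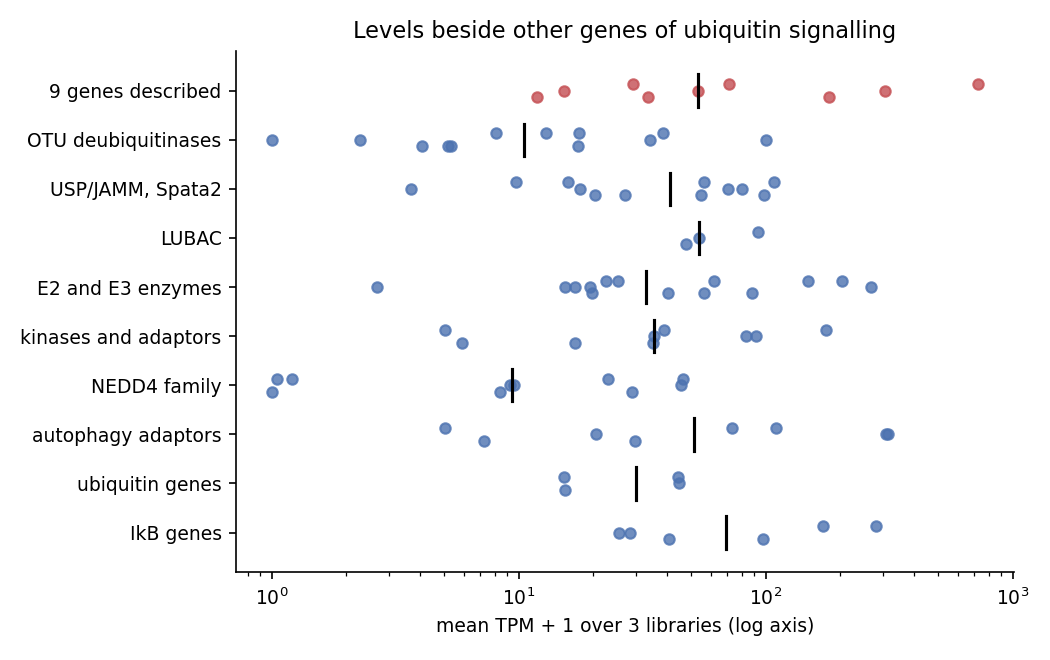
Mean TPM + 1 over 3 libraries, on a log axis, of the 9 genes (top row) and of 9 lists of other ubiquitin and NF-kB genes, each point 1 gene and each line the median. Tnip3, at 726 TPM, lies to the right of every gene listed, and the 9 genes have a median of 52.2 TPM.

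Other genes of ubiquitin signalling place these levels in their pathway. Of 78 listed genes, 73 reached 1 TPM in each library, 59 reached 10 TPM and 8 (10.3%) reached 100 TPM. In the gene table none of the 78 was above Tnip3 in each library, and none above Tnfaip3 in each library. Sqstm1 (230 and 350 TPM) and Nfkbia (238 and 314 TPM) were, however, above Tnfaip3 in replicates 2 and 3. Birc3 was above it in replicate 2 and Tank in replicate 1. The place of Tnfaip3 also depended on the table, since in the other one Tnfaip3 averaged 352 TPM, while Birc3 had 507, Nfkbia 413 and Sqstm1 392 TPM, and Tnip3 664 TPM. By mean, Sqstm1, which encodes the autophagy receptor p62, and Tank, which encodes an adaptor of IKK-related kinases, were level with Tnfaip3, at 313 ± 72.5 and 305 ± 147 TPM.

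Relatives of A20 among the OTU deubiquitinases were lower than A20, with a median of 9.61 ± 0.665 TPM over 12 genes and 11 of 12 at 1 TPM or more, while the median was 19.5 TPM in the other table. Otud5 was the highest at 98.9 ± 5.59 TPM, Otud7b, which is close to A20 in its domains, had 16.5 ± 6.04 TPM (44.2 TPM in the other table), and Otulinl, a relative of Otulin without deubiquitinase activity, had 7.12 ± 2.21 TPM (11.5 TPM in the other table). Otud7a was listed at 0 counts in each library, which, for replicates 1, 2 and 3, still permits 0.192, 0.11 and 0.143 TPM. The other transcript table gave it 94.5, 71.8 and 78.9 TPM, all on the noncoding transcript Otud7a-202 of 396 bases, from 333, 484 and 395 counts.

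The complex that builds the linear chains cut by OTULIN was present, with 92.0 ± 12.8 TPM for Rnf31, its catalytic subunit, 52.6 ± 8.76 TPM for Rbck1 and 46.7 ± 3.71 TPM for Sharpin. Each of the 3 exceeded Otulin. Spata2, which links CYLD to that complex, had 8.78 ± 0.71 TPM, or 17.5 TPM in the other table, below Cyld in both. In the list of 12 that holds Spata2 with USP and JAMM deubiquitinases, with a median of 38.4 ± 1.54 TPM, levels ran from 2.68 ± 1.01 TPM for Usp11 (4.24 TPM in the other table) to 107 ± 38.3 TPM for Usp15.

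Itch belongs to the NEDD4 family. A list of 10 genes, other ligases of this family and their adaptors, had a median of 8.70 ± 0.86 TPM, and 7 of the 10 reached 1 TPM. Over its genes that averaged 1 TPM or more the median was 21.9 TPM. Nedd4l and Wwp2 were above Itch in mean, Wwp2 being the highest at 45.4 ± 6.2 TPM and Nedd4l, with 76.8 TPM, in the other table, and Hecw1 was at 0 counts, which allows up to 0.0988 TPM in replicate 1. Ndfip1, an adaptor that activates ITCH, had 21.9 ± 0.622 TPM. Among 8 adaptors of selective autophagy and of IKK-related kinases listed beside Tax1bp1 the median was 50.2 ± 6.98 TPM, and levels ran from 4.02 ± 1.41 TPM for Calcoco1 (7.54 TPM in the other table) to those of Sqstm1.

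Of the ligases and conjugating enzymes that build chains upstream of NF-kB, 13 of 14 reached 10 TPM, from 1.66 ± 1.12 TPM for Peli2 (3.56 TPM in the other table) to 267 ± 52.3 TPM for Birc3, with a median of 32.6 ± 7.18 TPM. The kinases and adaptors that read chains had a median of 36.2 ± 12.7 TPM, with Ikbkb highest at 174 ± 33.2 TPM and Tab1 lowest at 4.03 ± 1.47 TPM. Of the genes that encode ubiquitin itself, Rps27a had 43.2 ± 3.51 TPM and Ubb 14.2 ± 2.51 TPM. The IkB genes, which encode the inhibitors that keep NF-kB in the cytoplasm and their nuclear relatives, had a median of 68.4 ± 13.1 TPM, from 24.5 ± 3.81 TPM for Nfkbib to 278 ± 38.1 TPM for Nfkbia. Nfkbia, another NF-kB target, thus had a mean level near that of Tnfaip3, with 424, 204 and 287 TPM for Tnfaip3 and 282, 238 and 314 TPM for Nfkbia in replicates 1, 2 and 3, and Nfkbia was highest in replicate 3.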

How the data were processed

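Per the labels, 3 libraries of chromatin-fraction RNA were made from macrophages of 1 condition. Per the file headers, the authors deposited for each library a gene and a transcript table from transcriptome alignments plus a second transcript table derived straight from the reads, on mm10 with GENCODE M21. The authors deposited expected counts (estimated, so not always whole) and TPM, which are scaled over every feature of a library, transfer RNAs and spike-ins included. The aligner, the quantifiers and the strand setting were not given in the sources used here.

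Genes were matched by symbol and gene identifier. Rows naming no annotated gene held 1.34%, 0.292% and 0.416% of counts in replicates 1, 2 and 3 and stayed out of library sizes. Chi-square per degree of freedom between libraries over 13088 genes was 36.9 to 191, so the libraries differed beyond sampling noise. Levels, transcript shares and SDs are descriptions. Differences between genes were taken within each library on log2(TPM + 1), with a pseudocount of 1, and tested by exact sign-flip permutation, two-sided, over 36 pairs with Benjamini-Hochberg adjustment. A count of 0 allows up to 3 counts, and these limits cover counting error only. The kB consensus is that of the NF-kB family, searched on both strands, and promoter windows are from RefSeq (GRCm38.p6).

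Named genes were the 9 genes, the highest and lowest of each list, every gene of lists of 4 or fewer, partners and relatives (Otulinl, Rnf31, Spata2, Ndfip1, Otud7b, Nfkbia), the 2 genes nearest to Tnip3 and to Tnfaip3, overlapping genes, and the highest and lowest markers. Nedd4l, Tank, the markers named at 0 and those named for the other transcript table were chosen after their values were seen. A few genes covered by this rule are not reported here. The 9 genes and the lists were chosen with earlier results of these data known.

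Rounded expected counts went into edgeR 4.0.16 (TMM factors, prior count 1) and DESeq2 1.42.0 (size factors) in R 4.3.3, a step checked on simulated data; other steps used Python 3.11.15, numpy 2.4.6, pandas 2.3.3, SciPy 1.17.1 and matplotlib 3.10.9. The edgeR common biological coefficient of variation was 0.266. Alternatives were leaving out each library, the other transcript table, TPM rescaled to protein-coding genes, other pseudocounts and filters, TMM and DESeq2 scaling.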

Additional observations from a re-analysis of the deposited data

How the results depend on the processing

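No contrast of conditions, paired or not, was possible because all 3 libraries form 1 group. With 3 libraries of 1 condition no test could pass a threshold of 0.05, and depth limits Otulin most, with 200 counts in replicate 1. Leaving out each library in turn kept 3 genes at 100 TPM and all 36 pairs ordered alike, and gave 50.6% to 54.4% for the median retained-intron share, 53.0% with all libraries. TPM rescaled to protein-coding genes put 5 genes at 100 TPM instead of 3, since the mean level of each gene is then over 3 times as high. Set against protein-coding genes averaging 1 TPM or more, the median percentile of the 9 genes was 86.6 instead of 94.1, by construction, as low genes leave the background. By the other transcript tables, 34 of 36 pairs were ordered alike, with Tnfaip3 minus Tnip1 at −0.07 and Tax1bp1 minus Tnip2 at −0.04. On TMM log2 CPM, which has no length correction, 34 pairs had the same direction in all 3 libraries. This count includes pairs turned round from the TPM order in each library, such as Itch and Cyld, and Otulin and Rnf11. By mean, Tnip2 minus Itch was −0.26, Itch minus Cyld −0.37 and Otulin minus Rnf11 −1.04. Replicate 1 minus 2 of Tnip1 was 0.10 on log2 TPM, but −0.055 with TMM, −0.0013 with DESeq2 size factors and −0.21 with rescaled TPM, the last 3 added after seeing the data. The median SD over the 9 genes was 0.21 with TPM and 0.12 with rescaled TPM, and that of Cyld fell to 0.046 with TMM, against 0.21 with TPM. The retained-intron share of Tnip3 was 80.4% and that of Tnip2 69.3% in the other transcript table.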
